A study of Tupaia belangeri with 6 samples.

Results

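AMPA and kainate receptors are the ionotropic glutamate receptors that carry fast excitation between neurons, and each channel is a tetramer of subunits encoded by separate genes. AMPA receptors are assembled from the products of GRIA1, GRIA2, GRIA3 and GRIA4, and the edited GRIA2 product makes the channel nearly impermeable to calcium. Kainate receptors are assembled from the products of GRIK1, GRIK2 and GRIK3, which form channels on their own, and of GRIK4 and GRIK5, the high-affinity subunits that reach the surface only together with the former. In cortex, AMPA receptors carry most of the fast excitatory current, whereas kainate receptors sit on both sides of the synapse and modulate transmission.

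The 9 genes GRIA1 to GRIA4 and GRIK1 to GRIK5 were looked up by gene name among 95863 loci, of which 43883 were named, in the prefrontal cortex of 6 adult Chinese tree shrews. RNA was sequenced from 3 females (animals 1, 3 and 4) and 3 males (animals 1, 4 and 5), with 1 library per animal. The labels name no treatment. By the study's methods each animal was anaesthetised with isoflurane and then given ketamine and pentobarbital before the brain was taken. The part of these drugs in the levels was not tested. Of the 9 genes, 7 had a row, namely 3 AMPA subunits and 4 kainate subunits. GRIA1 and GRIK1 had no row of that name in the tables used here, so their levels were not analysed here. Every sum below is therefore a sum over the subunits with a row. The study's sample list gives each male a greater age than each female, so that age and sex cannot be told apart.

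Levels are in TPM (transcript abundance scaled to the whole library), which is scaled for transcript length. The TPM values of a library summed to between 950532 and 971492. The number of reads behind a value is not among the values used here, so no counting interval is given. The mean read depth over a locus, which is not scaled for library size, was 211 to 292 for GRIA2, 85.5 to 125 for GRIA3, 4.67 to 7.95 for GRIA4, 28.4 to 47.1 for GRIK2, 9.31 to 36.3 for GRIK3, 9.84 to 14.5 for GRIK4 and 53.1 to 97.6 for GRIK5. The share of TPM at loci to which no strand was assigned was 5.16% in male 1 and 7.88% in male 5, against 2.30% to 3.33% in the other 4 libraries. The tissue was checked with marker genes. Of the excitatory cortical neuron markers, 8 of 9 had a row and summed to between 2423 and 4327 TPM, with the vesicular glutamate transporter SLC17A7 between 783 and 1569 TPM, and all 7 inhibitory neuron markers had a row and summed to between 1116 and 1366 TPM. Choroid plexus markers (3 of 4 with a row) summed to between 3.2 and 12.001 TPM. Astrocyte markers (5 of 6) summed to between 1404 and 2184 TPM, microglia markers (6 of 6) to between 162 and 304 TPM, endothelial markers (5 of 5) to between 325 and 491 TPM, and oligodendrocyte precursor markers (2 of 3) to between 7.0 and 21.2 TPM. Striatal projection neuron markers (4 of 8) summed to 320, 303 and 506 TPM in female 1, female 3 and male 1, against 113 to 157 TPM in the other 3 animals. Among them RGS9 was at 43.7 to 54.6 TPM in those 3 animals and at 0.35 to 1.52 TPM in the others, TAC1 ranged from 10.6 TPM in male 5 to 232 TPM in male 1, PENK from 98.9 to 216 TPM and DRD1 from 1.2 to 7.1 TPM. The sums of the oligodendrocyte and of the blood markers did not overlap between the sexes and are given beside the sex comparison. In tissue of this kind, fewer cells of a type and less RNA per cell cannot be told apart.

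GRIA2, on chromosome 25 of the tree shrew assembly TS_3.0 (chr25:607191-694950, forward strand), was the highest of the 7 subunits in each of the 6 animals. It reached 368 TPM in female 1, 453 in female 3, 315 in female 4, 305 in male 1, 378 in male 4 and 410.5 in male 5, a mean of 371.6 ± 56.1 TPM (SD, n = 6). The lowest and the highest animal were of opposite sex and the sexes overlapped. By mean TPM it ranked 296 among the 43883 named genes, of which 12639 had a mean of 1 TPM or more.

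GRIA3, which encodes a second widespread AMPA subunit, lies on the X chromosome (chrX:116645269-116868600, reverse strand). Its level was 175 TPM in female 1, 194 in female 3, 149 in female 4, 172 in male 1, 179.9 in male 4 and 207 in male 5 (mean 179.4 ± 20.03 TPM, SD, n = 6, rank 744). The ranges of females and males overlapped, and the SD of log2(TPM + 1) over the 6 animals, 0.163, was the smallest of the 7 subunits. The median of that SD was 0.306 over the 8685 tested loci with a mean of 10 TPM or more.

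GRIA4, known for fast channel kinetics and for its place in interneurons and in the young brain, is spread over a long locus on chromosome 9 (chr9:32835319-33377042, reverse strand). It stood at 39.0 TPM in female 1, 66.3 in female 3, 39.9 in female 4, 79.1 in male 1, 67.5 in male 4 and 70.3 in male 5 (mean 60.3 ± 16.8 TPM, SD, n = 6, rank 2602). Every male was above every female, although female 3 and male 4 were close to each other. The SD of its log2 level, 0.434, was above the median just given.

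All 4 kainate subunits were below GRIA2 and GRIA3 by mean TPM, and GRIK5, the highest of them, was above GRIA4. GRIK5 (chr27:19597203-19681435, reverse strand) encodes the more abundant of the high-affinity subunits. It was measured at 100.4 TPM in female 1, 115 in female 3, 107 in female 4, 67.9 in male 1, 108 in male 4 and 65.7 in male 5, with a mean of 94.15 ± 21.7 TPM (SD, n = 6, rank 1642). Males 1 and 5 stood below the other 4 animals, while male 4 lay among the females. Males 1 and 5 were also the libraries with the highest share of TPM at loci without strand.

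GRIK4 (chr9:12013069-12521861, reverse strand), the other high-affinity subunit, had the lowest mean. Its values were 21.7, 23.3 and 15.8 TPM in females 1, 3 and 4, against 14.9, 24.3 and 14.2 TPM in males 1, 4 and 5 (mean 19.0 ± 4.58 TPM, SD, n = 6, rank 5831). The sexes overlapped, and male 4 was the highest animal. Both high-affinity genes were lower in males 1 and 5 than in male 4.

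GRIK2, which encodes the principal channel-forming kainate subunit of the forebrain, lies on chromosome 3 (chr3:63195632-63932761, reverse strand). It was at 38.4, 44.8 and 33.9 TPM in females 1, 3 and 4, and at 36.2, 28.5 and 38.0 TPM in males 1, 4 and 5 (mean 36.6 ± 5.38 TPM, SD, n = 6, rank 3878). The groups overlapped, and with an SD of 0.210 on the log2 scale it was the least variable kainate subunit.

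GRIK3 (chr7:52891403-53125928, forward strand), a channel-forming subunit of low glutamate sensitivity, varied most of the 7. It was at 38.5 TPM in female 1, 43.3 in female 3 and 34.9 in female 4, against 22.8 in male 1, 24.9 in male 4 and 11.005 in male 5 (mean 29.2 ± 11.9 TPM, SD, n = 6, rank 4562). Every female was above every male, and male 5 lay far below the other males. The highest animal was 3.94-fold above the lowest, and the SD on the log2 scale was 0.689.

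**Figure D1:**
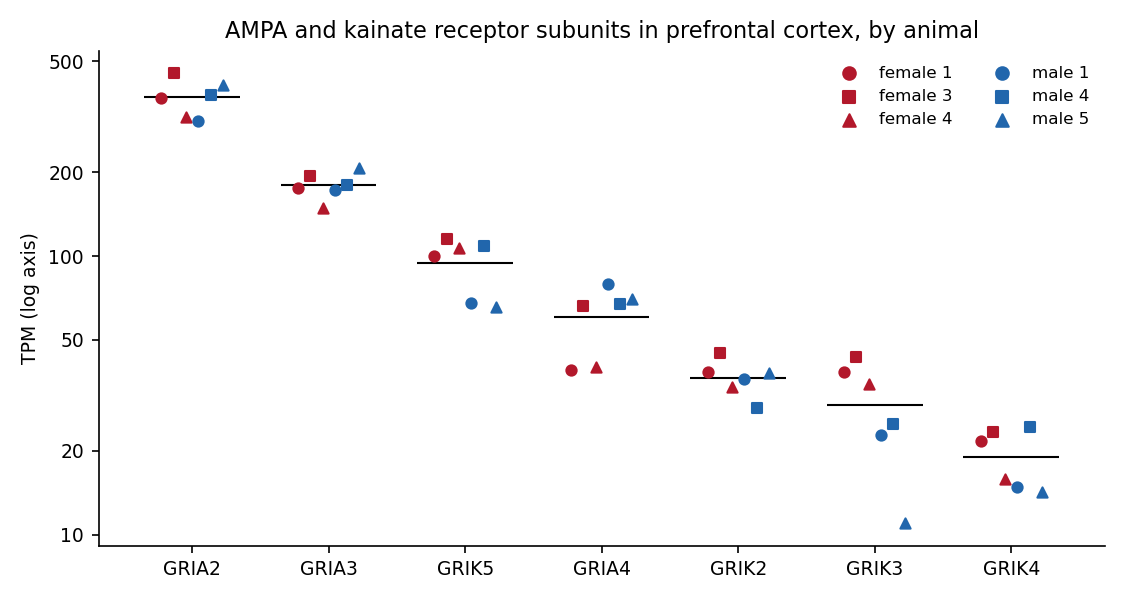
Levels of the 7 subunits with a row, in TPM on a log axis, with 1 point per animal coloured by sex and the horizontal line giving the mean over the 6 animals. GRIA2 lies highest in each animal, and in GRIK3 the 3 females lie above the 3 males.

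In order of mean TPM the subunits were GRIA2, GRIA3, GRIK5, GRIA4, GRIK2, GRIK3 and GRIK4. Neighbours in this order were compared within animals by an exact two-sided sign-flip permutation test, whose smallest p with 6 animals is 0.03125, which became 0.0625 after adjustment over the 6 pairs. GRIA2 exceeded GRIA3 2.07-fold and GRIA3 exceeded GRIK5 1.91-fold, each in 6 of 6 animals, with ranges that did not overlap. Both pairs had an exact p of 0.03125 (adjusted 0.0625), so that 0 of 6 pairs passed an adjusted threshold of 0.05. GRIA4 was above GRIK2 in 6 of 6 animals as well (1.65-fold, exact p = 0.03125, adjusted 0.0625), although the ranges overlapped.

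The other neighbours could not be ordered beyond their spread. GRIK5 was above GRIA4 in 4 of 6 animals (1.56-fold, exact p = 0.125), GRIK2 above GRIK3 in 4 of 6 (1.25-fold, exact p = 0.125) and GRIK3 above GRIK4 in 5 of 6 (1.54-fold, exact p = 0.09375). The animals that broke the order of GRIK5 and GRIA4 were males 1 and 5, in which GRIK5 was lowest. The animals in which GRIK3 was not below GRIK2 were females 1 and 4.

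The place of GRIA4 in this order depended on the measure. StringTie, the program the authors used for quantification, gives beside the TPM a coverage, the mean read depth over a locus, which was converted to TPM units by the TPM that 1 unit of coverage was worth at loci without strand in the same library (0.650 to 0.836). In this measure, chosen after the data were seen, GRIA4 stood at 3.34, 4.48 and 4.14 in females 1, 3 and 4, and at 3.84, 4.22 and 6.40 in males 1, 4 and 5 (mean 4.40 ± 1.05, SD, n = 6). The sexes overlapped, and GRIA4 was the lowest subunit in place of the fourth.

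For GRIA4, TPM divided by mean depth was 11.7, 14.8 and 9.65 in females 1, 3 and 4, against 20.6, 15.98 and 10.98 in males 1, 4 and 5, with a mean of 13.9. The other 6 subunits had mean ratios between 1.24 (GRIK2) and 2.29 (GRIA3). Over 12465 loci with coverage above 1 in every animal the median was 1.32 and the 95th percentile 7.95, and 2.02% of the loci had a ratio at or above that of GRIA4. GRIA4 was thus the only subunit beyond the 95th percentile.

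Ordered by mean depth, the subunits were GRIA2 (189.5), GRIA3 (79.0), GRIK5 (55.3), GRIK2 (29.6), GRIK3 (18.8), GRIK4 (9.51) and GRIA4 (4.40). The other 6 subunits kept their order. In this measure 5 of 6 neighbour pairs passed the adjusted threshold (exact sign-flip test, adjusted p = 0.0375), and GRIK3 over GRIK4 did not (exact p = 0.0625). Each of the 5 had the smallest exact p that 6 animals allow, 0.03125. Their adjusted p is lower than by TPM only because 5 pairs, in place of 3, had that smallest p. In either measure the pairs were set by the order of the values tested. GRIK4 exceeded GRIA4 2.16-fold in 6 of 6 animals.

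**Figure D2:**
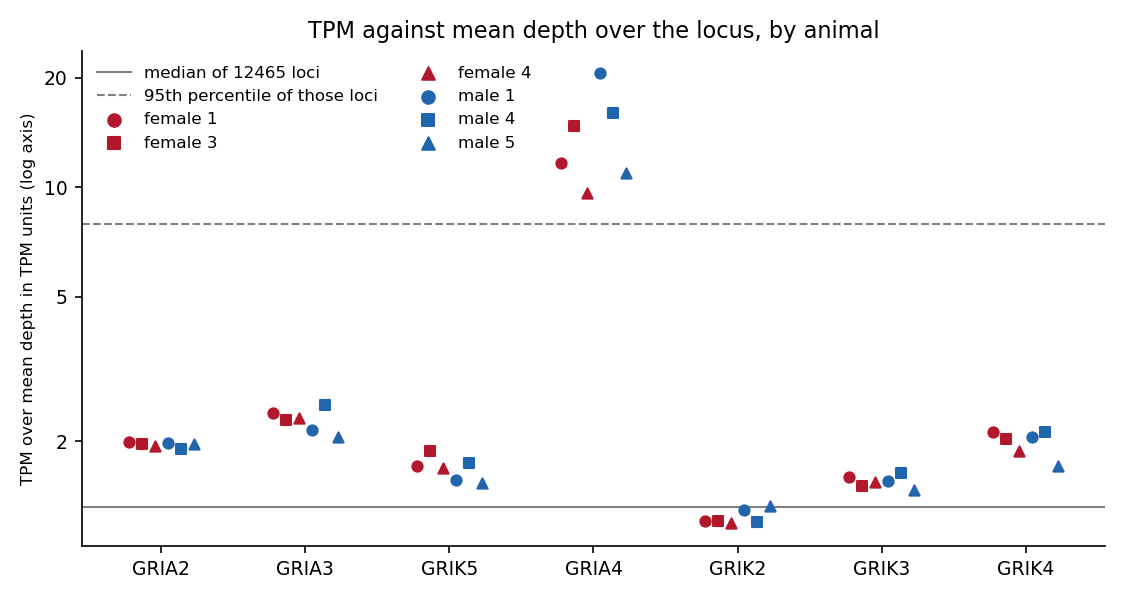
TPM divided by mean depth in TPM units, on a log axis, for the 7 subunits, with 1 point per animal. The solid line is the median (1.32) and the dashed line the 95th percentile (7.95) of 12465 loci, and the 6 values of GRIA4 lie above both.

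Other loci were assembled inside the spans of the subunit genes. GRIA4 held the only loci without strand, 3 in all, which summed to 0.29, 1.13 and 0 TPM in females 1, 3 and 4 and to 5.68, 0 and 12.2 TPM in males 1, 4 and 5. Over the 7 genes, 28 loci lay on the opposite strand and summed to between 13.2 and 37.7 TPM. Those within GRIA3, 3 loci, summed to 8.56, 15.1 and 3.90 TPM in the females and to 1.68, 16.0 and 28.0 TPM in the males. The methods describe second-strand synthesis with ordinary nucleotides and name no step that marks strand, so reads of a gene and of a locus opposite to it cannot be told apart. ZNF574, a zinc finger gene that overlaps an end of GRIK5, was at 15.01 to 23.5 TPM.

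Together GRIA2, GRIA3 and GRIA4 summed to 582.0 TPM in female 1, 712.9 in female 3, 503.5 in female 4, 556.5 in male 1, 625.7 in male 4 and 687.8 in male 5 (mean 611.4 ± 79.8 TPM, SD, n = 6). GRIK2 to GRIK5 summed to 198.8, 226.8 and 191.7 TPM in the females and to 141.8, 186.2 and 128.9 TPM in the males (mean 179.0 ± 36.9 TPM, SD, n = 6). The AMPA sum was higher than the kainate sum in 6 of 6 animals, by a factor of 3.55 ± 0.977 (SD, n = 6; exact sign-flip test of the log2 ratio, p = 0.03125, the smallest it can give). With GRIA1 and GRIK1 outside the sums, this factor holds for the 7 subunits with a row.

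GRIA2 supplied 60.7% ± 3.26 of the AMPA sum, GRIA3 29.4% ± 1.30 and GRIA4 9.86% ± 2.61 (SD, n = 6). The ratio of GRIA2 to GRIA3 was 2.07 ± 0.184 and stayed between 1.77 (male 1) and 2.33 (female 3). By mean depth the GRIA4 share was 1.61% ± 0.272, and the GRIA2 share was 64.8% to 72.3%.

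GRIK5 supplied 52.4% ± 3.86 of the kainate sum, GRIK2 21.2% ± 5.30, GRIK3 15.8% ± 4.19 and GRIK4 10.7% ± 1.55 (SD, n = 6). The high-affinity subunits together made up 61.4%, 61.1% and 64.1% in females 1, 3 and 4, against 58.4%, 71.3% and 61.9% in males 1, 4 and 5. GRIK5 was 5.003 ± 0.887 times GRIK4. The ratio of GRIK2 to GRIK3 was 0.997, 1.03 and 0.972 in females 1, 3 and 4, against 1.58, 1.145 and 3.46 in males 1, 4 and 5.

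**Figure D3:**
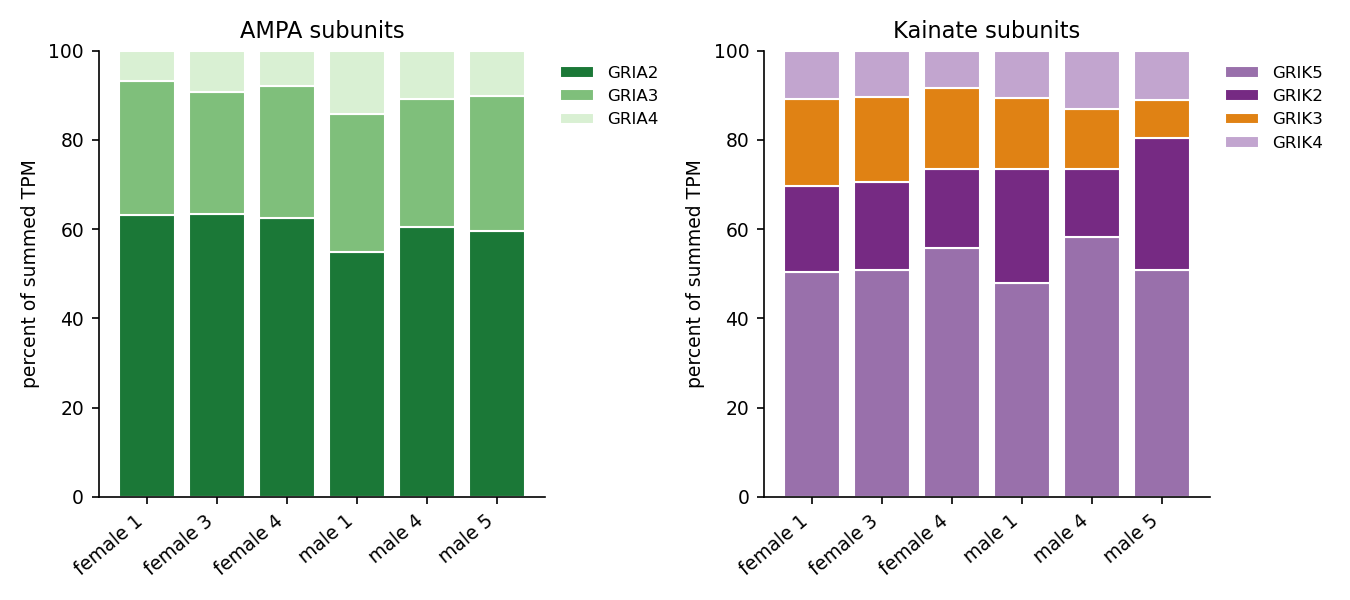
Percent of the summed TPM taken by each AMPA subunit (left) and by each kainate subunit (right), with 1 stacked bar per animal. GRIA2 takes between 54.9% and 63.5% of the AMPA sum, and GRIK5 between 47.9% and 58.2% of the kainate sum.

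A gene-like copy of GRIK1, GRIK1li1 on chromosome 1, was left out by the rule. It stood at 18.5, 18.9 and 18.05 TPM in females 1, 3 and 4 and at 19.6, 14.1 and 21.7 TPM in males 1, 4 and 5. Counted with the kainate subunits it would take 7.02% to 14.4% of their sum.

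The NMDA receptor subunits, the third family of ionotropic glutamate receptors, were set beside the AMPA sum. Of 7 NMDA genes, 5 had a row, namely GRIN1, GRIN2A, GRIN2B, GRIN2C and GRIN3A. GRIN1, a row that spans only 4.379 kb, ranged from 143 to 602 TPM and made up most of this sum in each animal. A gene-like copy of it, GRIN1li1 on an unplaced contig, was at 577 to 1019 TPM. GRIN2B was at 0.49 to 5.51 TPM, with a mean depth of 0.13 to 1.47. The ratios below therefore mainly follow the GRIN1 row. The AMPA sum was 1.02, 1.06 and 2.74 times the NMDA sum in females 1, 3 and 4, against 1.995, 1.27 and 1.46 times in males 1, 4 and 5 (mean 1.59 ± 0.666, SD, n = 6). When 2 gene-like copies, GRIN1li1 and GRIN3Bli1, were added to the NMDA sum, the factor was 0.403 to 0.642. By mean depth, without the copies, the log2 ratio of the AMPA to the NMDA sum was -1.09, -1.03 and 0.42 in females 1, 3 and 4, against -0.15, -0.80 and -0.53 in males 1, 4 and 5. The NMDA sum was thus the higher in 6 of 6 animals by TPM with the copies counted, and in 5 of 6 animals, all but female 4, by mean depth without them.

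Across the 6 animals, log2(TPM + 1) of GRIK3 and GRIK5 (Pearson r = 0.82), of GRIA2 and GRIA3 (r = 0.80) and of GRIK4 and GRIK5 (r = 0.79) had the highest correlations of the 21 pairs of subunits. The lowest was that of GRIA4 and GRIK3 (r = -0.54). By mean depth these pairs had r = 0.78, 0.53, 0.73 and -0.72, and GRIA3 with GRIK5 was as low (r = -0.72, against -0.34 by TPM). In that measure GRIA3 with GRIA4 (r = 0.75, against 0.61 by TPM) and GRIA2 with GRIK4 (r = 0.72, against 0.50) were above GRIA2 with GRIA3. These are descriptions over 6 libraries of both sexes, and values of one library share its scaling. Among 11146 other named genes that had a mean of 1 TPM or more and were among the loci tested between the sexes, which leaves out unplaced contigs, those most like the AMPA sum were TIGAR (r = 0.997), PTPN11li1 (r = 0.995) and ANKRD17 (r = 0.992). MAFA (r = 0.989) and SFRP5 (r = 0.988) were among the 3 most like the kainate sum. Of the same genes, 163 reached 0.95 with the AMPA sum and 63 with the kainate sum.

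The design compares females with males, and none of the 7 subunits differed between the sexes at an adjusted p under 0.1 (limma on log2(TPM + 1), Benjamini-Hochberg). In the same fit 0.0174% of the 28740 loci tested passed, namely 0.0143% of the autosomal loci and 0.134% of the X-linked loci. At the same adjusted p the study's own test on read counts called a larger share of genes, on the autosomes and on X. The absence of a call here therefore does not show equal levels. At an unadjusted p under 0.05, 2 of the 7 subunits, GRIK3 and GRIA4, differed, against 5.01% of all loci, and in the same 2 the sexes did not overlap, against 9.81% of all loci. In GRIK3 every female was above every male, as in 4.82% of all loci, and in GRIA4 every male was above every female, as in 4.99%. The difference was positive, that is higher in females, in 5 subunits and negative in 2, with a median of 0.18 against -0.032 over all loci.

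The mean of GRIK3 was 38.9 ± 4.25 TPM in females and 19.6 ± 7.51 TPM in males (SD, n = 3 each), a log2 difference of 1.03 (SE 0.303, 95% interval 0.34 to 1.72, limma unadjusted p = 0.00866, adjusted p = 0.925). Without male 5 the difference was 0.68, and with a replicate block it was 0.60 (limma unadjusted p = 0.0774), which no longer passed an unadjusted 0.05. The sexes were also apart by mean depth in TPM units, which was 22.5 to 28.7 in females and 7.496 to 15.3 in males. The kainate sum, which holds GRIK3, was 53.5 TPM higher in females and its sexes did not overlap (exact two-sided permutation test, p = 0.1, the smallest that 3 against 3 animals allow, adjusted over 6 sums and ratios 0.2). Males 1 and 5, with the lowest kainate sums, had 5.16% and 7.88% of TPM at loci without strand, and rescaling to loci with a strand gave a difference of 50.8 TPM. The difference was 48.2 TPM without male 1 and 41.8 TPM without male 5.

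GRIA4 was lower in females by -0.61 on the log2 scale (SE 0.229, 95% interval -1.13 to -0.086, limma unadjusted p = 0.0274, adjusted p = 0.925). By mean depth the difference was -0.20 (limma unadjusted p = 0.484), and the sexes overlapped. GRIA4 also missed an unadjusted 0.05 without the variance trend (limma unadjusted p = 0.0808) and without female 1 (0.111), female 4 (0.0840), male 1 (0.0737) or male 5 (0.0550). It met that cut without female 3 (-0.85, limma unadjusted p = 0.0023), without male 4 (-0.66, 0.041) and with a replicate block (-0.87, 0.011). The limma adjusted p in these 3 settings was 0.946, 0.566 and 0.99999. The loci without strand inside GRIA4 were highest in males 1 and 5. A locus on the same strand inside GRIA4 was at 0.10 to 0.28 TPM in the 3 females and between 1.66 and 2.48 TPM in the 3 males, and 7 loci on the opposite strand summed to 0.45 to 1.37 TPM in the 3 females and to 1.45 to 2.62 TPM in the 3 males. The part of these loci in the result was not tested.

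GRIK5 had a difference of 0.45 (SE 0.218, 95% interval -0.051 to 0.95, limma adjusted p = 0.925). Its unadjusted p was 0.0724 (limma). After rescaling to loci with a strand the difference was 0.39 (limma unadjusted p = 0.0939). It ranged from 0.32 without male 5 (limma unadjusted p = 0.229) to 0.68 without male 4 (limma unadjusted p = 0.0039, adjusted p = 0.477), and was 0.27 with a replicate block (limma unadjusted p = 0.352). The differences of the remaining 4 were 0.05 for GRIA2, -0.12 for GRIA3, 0.18 for GRIK2 and 0.20 for GRIK4, with adjusted p between 0.939 and 0.989. Their 95% intervals ran from -0.44 to 0.54 for GRIA2, from -0.52 to 0.29 for the X-linked GRIA3, from -0.27 to 0.64 for GRIK2 and from -0.43 to 0.83 for GRIK4. Differences of these sizes in either direction are therefore within the error. The sign for GRIA2 turned under some scalings (-0.071 after quantile normalization) and that for GRIK4 with a replicate block (-0.038). Without female 4 the difference of GRIA3 was -0.013, and without male 4 that of GRIK2 was 0.062.

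**Figure D4:**
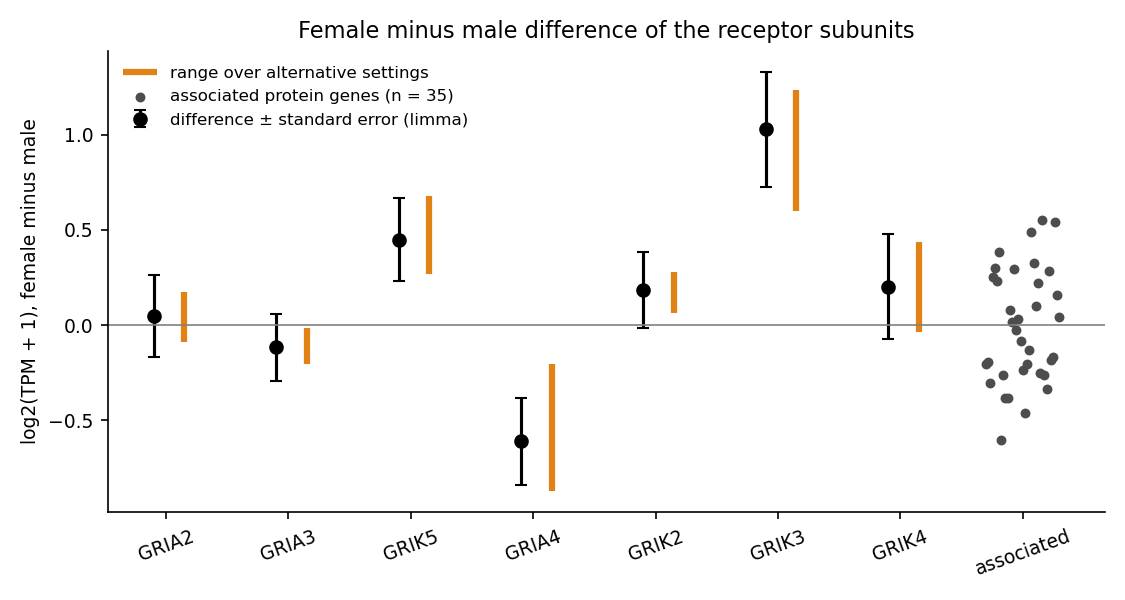
Female minus male difference in log2(TPM + 1) for each subunit, with its standard error from limma (black) and the range over alternative settings (orange), and the differences of 35 genes of associated proteins (grey). GRIK3 has the largest difference of the subunits, 1.03, and GRIA4 the lowest, -0.61.

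The AMPA sum did not separate the sexes (female minus male -23.9 TPM, exact permutation p = 0.8), and its difference ran from -80.6 TPM without female 3 to 24.1 TPM without female 4. The ratio of the AMPA to the kainate sum was 2.93, 3.14 and 2.63 in females 1, 3 and 4, against 3.93, 3.36 and 5.34 in males 1, 4 and 5. Every male was above every female, with a log2 difference of -0.51 (exact permutation p = 0.1, adjusted 0.2), or -0.33 without male 5. The GRIA2 share of the AMPA sum was 63.3%, 63.5% and 62.6% in females 1, 3 and 4, against 54.9%, 60.5% and 59.7% in males 1, 4 and 5, a difference of 4.78 percentage points (exact permutation p = 0.1, adjusted 0.2), or 3.04 without male 1. By mean depth the GRIA2 shares of the sexes overlapped (exact permutation p = 0.4). The share of the high-affinity subunits differed by -1.66 percentage points (exact permutation p = 0.8), and the log2 ratio of the AMPA to the NMDA sum gave p = 0.8. The sign of both turned when single animals were left out, the former without male 4 (2.05) and the latter without female 1 (0.141), female 3 (0.112) or male 1 (0.078).

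For 2 of the 10 marker lists, oligodendrocytes and blood, the summed levels of females and males did not overlap, and no list was tested. Of the 6 oligodendrocyte markers 3 had a row, MBP, MOG and MAG, and their sum was 481.6, 347.6 and 399.3 TPM in females 1, 3 and 4 and 235.6, 125.4 and 80.7 TPM in males 1, 4 and 5. None of the 3 was at 0, and MAG, a myelin adhesion protein, made up most of the sum. MAG was at 247 to 346 TPM in the 3 females and between 63.4 and 146 TPM in the 3 males. MOG (63.0 to 126 TPM in females, 10.2 to 76.4 TPM in males) and MBP (9.79 to 13.7 TPM in females, 7.07 to 13.6 TPM in males) overlapped between the sexes. GRIK3 was lowest in male 5, which was also lowest in this sum. The other animals did not all follow that order. Among the females GRIK3 was highest in female 3, which had the lowest sum of the females. GRIK3 was also higher in male 4 than in male 1, although the sum was lower in male 4. The 3 blood markers with a row, of 5 listed, summed to between 1275 and 2542 TPM in females and between 62.7 and 101 TPM in males, and ALAS2 among them was at 0 in male 1. The part of either in the differences of GRIK3, GRIA4 and the kainate sum was not tested.

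**Figure D5:**
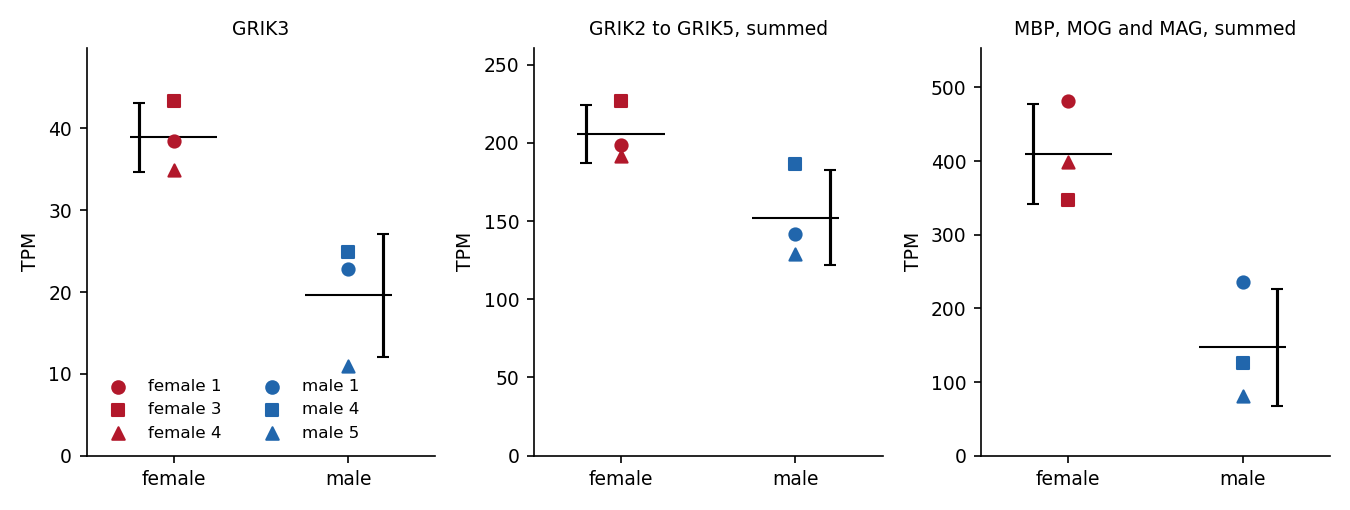
TPM of GRIK3 (left), of GRIK2 to GRIK5 summed (middle) and of the oligodendrocyte markers MBP, MOG and MAG summed (right), with 1 point per animal and the mean and SD of each sex. In all 3 panels the females lie above the males, and male 5 is the lowest animal.

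Proteins that accompany these receptors were read from the same fit. Of 46 genes in 4 lists 37 had a row and 35 were tested, and 0 passed an adjusted p of 0.1, against the 0.0174% above. At an unadjusted p under 0.05 there was 1 of the 35, against 5.01% of all loci. In 2 the sexes did not overlap (5.71%, against 9.81% of all loci). These were NPTX1 and SHISA6, which are named because of their values.

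Some AMPA auxiliary subunits hold the channel at the synapse and slow its closing, which does not apply to every gene on this list. Of 19 genes 13 had a row and were tested, 6 with a positive and 7 with a negative difference (median -0.19), and CACNG7, SHISA8, SHISA9, CPT1C, PRRT2 and SYNDIG1 had no row of that name. The highest were the cornichon CNIH2 (611.3 ± 91.7 TPM), PRRT1 (240.7 ± 15.01 TPM) and the transmembrane AMPA receptor regulator CACNG3 (192.4 ± 21.2 TPM, SD, n = 6). CNIH2 was thus above GRIA2, and CACNG3 was near GRIA3. SHISA6, which keeps AMPA receptors at the postsynaptic density, was at 5.90, 5.44 and 6.91 TPM in the females and at 8.18, 7.29 and 15.2 TPM in the males (log2 difference -0.60, SE 0.354, limma adjusted p = 0.925).

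Of the 6 kainate auxiliary genes 5 were tested, with a median difference of 0.031, and NETO2 had no row. CNIH2 is on this list too, followed by C1QL3 (118.2 ± 21.6 TPM), a secreted synaptic organiser, and NETO1 (46.6 ± 15.7 TPM, SD, n = 6), which alters the gating of kainate receptors.

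Among 19 genes of trafficking and scaffold partners 17 had a row and 15 were tested, with a median difference of -0.17. OLFM1, a secreted glycoprotein found in AMPA receptor complexes, was at 2581 ± 228 TPM, the ATPase NSF, which binds the GRIA2 product, at 667.1 ± 143.3 TPM and the neuronal pentraxin receptor NPTXR at 556.1 ± 163.4 TPM (SD, n = 6). NPTX1, a pentraxin that clusters AMPA receptors, was at 540.2, 618 and 384 TPM in the females and at 358, 377 and 302 TPM in the males. Every female was above every male (log2 difference 0.55, SE 0.230, limma unadjusted p = 0.0422, adjusted p = 0.925). DLG4 and EPB41L1 had no row, GRIPAP1 on an unplaced contig was not tested and GRID2IP was listed at 0.

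RNA editing enzymes recode GRIA2 and GRIK2 transcripts. The 3 genes of this family were all tested and 0 of 3 passed. ADARB1, the enzyme that edits the calcium-permeability site of GRIA2, was at 52.5 ± 6.97 TPM, ADAR at 38.5 ± 12.8 TPM and ADARB2, which has no known editing activity, at 8.20 ± 3.19 TPM (SD, n = 6). Editing itself was not analysed here, since the tables hold levels and no bases.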

How the data were processed

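Per the labels and the study's methods, polyadenylated RNA of each animal's prefrontal cortex was sequenced. The authors aligned reads to TS_3.0 with HISAT2 2.2.1, assembled and merged transcripts with StringTie 2.2.1 and quantified each animal separately. The deposited tables list coverage, FPKM and TPM per locus. The deposited TPM is relative to the library, FPKM is a constant multiple of it within a library, and the deposited coverage is a mean depth not scaled for library size. Read counts were not used here.

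Rows of one gene ID and chromosome were summed. Females minus males, in log2(TPM + 1), were fitted with limma 3.58.1 (R 4.3.3, variance trend on the mean) for loci that reached 0.1 TPM in 3 animals. Benjamini-Hochberg adjustment was made within autosomes (27996 loci) and within X (744 loci), with a threshold of 0.1. A segment of chromosome 26 and one of X, which hold no subunit, were left out. A fold on this scale understates changes of low genes. The script was tested on simulated data. Sums, shares and the order were tested by exact permutation with scipy 1.17.1.

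All 9 subunit genes are named, with the 3 highest genes and any called gene of each associated list and the 3 genes most like each sum, of which 1 is not reported here. Subunits, lists and tests were chosen with earlier results of these data known. Alternatives varied the pseudocount, filter, scaling, unit, block, trend, adjustment and animals. Mean depth and the counting of gene-like copies were added after the data were seen.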

Additional observations from a re-analysis of the deposited data

How the results depend on the processing

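No receptor subunit and no associated gene passed the threshold under any of the 19 alternatives to the fit, leave-one-out included (0 to 0 calls for both lists). GRIK3 stayed higher in females, with log2 differences from 0.60 (replicate block) to 1.23 and limma adjusted p from 0.477 to 0.99999, GRIA4 stayed lower in females, from -0.87 to -0.20, and GRIK5 stayed higher, from 0.27 (replicate block) to 0.68 (without male 4). The difference of GRIA2 turned to -0.071 after quantile normalization, to -0.0079 after rescaling to loci with a strand, to -0.087 without female 3 and to -0.073 without male 1, within a leave-one-out range up to 0.173. Females and males share the numbers 1 and 4, which the labels do not say pair the animals, and same-numbered animals had deviations correlated by 0.00098 and 0.038. With the replicate block 0 receptor subunits and 0 associated genes passed, and the difference of GRIK4 was -0.038. Leaving out each animal in turn moved the difference of the AMPA sum between -80.6 and 24.1 TPM (24.1 without female 4, 8.35 without male 5), that of the kainate sum between 41.8 and 70.5 TPM, that of the GRIA2 share between 3.04 and 5.84 percentage points and that of the log2 ratio of AMPA to kainate between -0.66 and -0.33. The difference of the share of high-affinity kainate subunits ran from -4.41 to 2.05 percentage points, with 2.05 without male 4, and was 0.197 with GRIK1li1 counted. That of the log2 ratio of AMPA to NMDA ran from -0.57 to 0.14, and was above 0 without female 1 (0.141), female 3 (0.112) or male 1 (0.078). By mean depth 5 neighbour pairs passed in place of 0, because 5 pairs in place of 3 had the smallest exact p. With 5 animals 0 can pass, because the exact sign-flip p cannot go below 0.0625. The causes were not tested. Mean read depth was lowest for GRIA4 (4.67 to 7.95), but reads per locus are not given and no counting limit was computed.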
